A study of Homo sapiens with 16 samples.

Results

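The genes described here encode the nuclear subunits of respiratory complexes II, III, IV and V and cytochrome c, followed across 4 groups of HAP1 libraries. They were chosen by symbol: SDHA to SDHD, names starting with UQCR, COX4 to COX8 or ATP5, and CYC1 and CYCS. Of 33121 rows of the count table, 54 matched. ATP5C1, the pseudogenes ATP5EP2 and UQCRBP1 and the numbered copy COX8C-2 were left out, which gave 50 genes: 4 of complex II, 10 of complex III, CYCS alone, 17 of complex IV, 16 of complex V, and ATP5S and ATP5SL. The last pair carry ATP5 symbols but have the RefSeq names DMAC2L and DMAC2 and are not subunits of the enzyme, so the label does not hold for them. UQCRHL is a near-copy of UQCRH, and ATP5J2-PTCD1 is a read-through of neighbouring genes. The expression filter was passed by 43 of the 50 genes, which are the tested members below.

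Poly-A RNA was sequenced from HAP1, a near-haploid human line. The groups were cells with a deletion of SLC30A10, a manganese exporter, cells wild type for SLC30A10 as their control set, cells with a deletion of another gene (the second knockout), and cells wild type for that gene (the second control set), with 4 libraries in each. A single cell line identifier covers both control sets, and each knockout has its own; all were grown in the same serum-supplemented medium, and the labels name no treatment. Each knockout is thus a single line, the labels do not give the number of clones, and they do not say that replicates were separate cultures, so p-values measure only the spread between these libraries, which may be technical.

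Library totals ran from 16058856 to 16648151 counts, and 3 counts, the limit that a count of 0 allows, corresponded to 0.181 to 0.187 CPM (a count divided by library size after scaling), counting error only. SLC30A10 itself gave 3 to 11 counts in its knockout and 6 to 9 in its control (two-sided exact permutation p = 0.686, smallest possible 0.0286), so its RNA did not check the labels. The blood-lineage genes PTPRC, CD34, SPI1 and GATA1 gave at most 9 counts in any library. VIM and COL4A1 were checked as genes of adherent lines, and they disagreed. VIM, a filament gene, had group means of 357 to 630 CPM, while COL4A1 gave at most 1 count. VIM was lowest in the SLC30A10 knockout, with a log2 fold change of -0.82 ± 0.09 (SE, edgeR adjusted p = 1.01e-05), and its part in the results below was not tested. Library 1 of the second knockout lay apart from the other 3 in 5 of the 14 cases flagged in the closing section. Without it, the counts of members past the threshold were 13 for the SLC30A10 knockout, 4 for the second knockout, 11 for the difference of the knockout effects and 12 between the control sets.

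The mitochondrial respiratory chain passes electrons from nutrients to oxygen and pumps protons, and ATP synthase uses the proton gradient to make ATP. Complex II (succinate dehydrogenase) feeds electrons from the citric acid cycle to ubiquinone, complex III passes them to cytochrome c, complex IV (cytochrome c oxidase) reduces oxygen, and complex V is the ATP synthase. Complex II is wholly nuclear-encoded, while complexes III, IV and V join the subunits described here to subunits made from mitochondrial DNA, whose transcripts were not analysed here.

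Promoter sequence is a feature that the choice of genes did not use. The transcription factors NRF1, GABP (an ETS factor) and YY1 are known regulators of respiratory genes, and their core letters were searched on both strands of RefSeq promoter windows (GRCh38.p14, 300 bases around each start), which were at hand for 33 tested members. The GABP core CCGGAAG was in 14 of 33 member windows (42.4%) and in 10.7% of all 27305 windows. The YY1 core AAGATGGC was in 5 (15.2%, against 3.03% of all), and the NRF1 core GCGCATGC in 8 (24.2%, against 3.27%). The share of the NRF1 core rests on the letters chosen: the longer palindrome GCGCATGCGC, which was searched first, was in 1 member window, that of SDHD (3.03%, against 1.36% of all). With the shorter core, at least 1 of these cores was in 57.6% of the member windows and in 15.6% of all, and matches of different cores overlapped in 0 member windows and in 8 of all. All windows include those of genes not tested here, a match is a description and not a binding site, and the tested members without a window are ATP5B, ATP5D, ATP5G3, ATP5J2, ATP5S, COX6C, CYC1, SDHC, UQCRB and UQCRHL. Below are the 150 bases before the start of SDHD and COX5B, which hold both the NRF1 and the GABP core, of COX6B1 with the GABP core alone, and of COX6B2 and COX4I1, the members that rose and fell most in the SLC30A10 knockout. Capitals mark the cores on either strand, and the positions are chr11:112086723-112086872 (plus strand), chr2:97645912-97646061 (plus), chr19:35648173-35648322 (plus), chr19:55354720-55354869 (minus) and chr16:85799545-85799694 (plus), in that order.
SDHD: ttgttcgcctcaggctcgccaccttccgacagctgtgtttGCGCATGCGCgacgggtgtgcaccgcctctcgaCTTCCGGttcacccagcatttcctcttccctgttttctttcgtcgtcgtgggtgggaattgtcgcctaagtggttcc
COX5B: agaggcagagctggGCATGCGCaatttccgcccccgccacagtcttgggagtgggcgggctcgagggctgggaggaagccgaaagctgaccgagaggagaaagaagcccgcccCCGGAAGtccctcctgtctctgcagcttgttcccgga
COX6B1: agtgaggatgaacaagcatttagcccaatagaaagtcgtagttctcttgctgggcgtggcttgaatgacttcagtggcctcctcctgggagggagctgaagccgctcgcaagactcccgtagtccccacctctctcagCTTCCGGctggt
COX6B2: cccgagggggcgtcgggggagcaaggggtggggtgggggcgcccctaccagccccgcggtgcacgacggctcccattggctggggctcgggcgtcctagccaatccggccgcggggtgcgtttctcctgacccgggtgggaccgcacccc
COX4I1: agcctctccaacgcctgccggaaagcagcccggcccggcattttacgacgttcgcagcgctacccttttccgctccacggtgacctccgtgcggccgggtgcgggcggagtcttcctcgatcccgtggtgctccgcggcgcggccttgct

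Counting the start as 0, the NRF1 core of SDHD, present on both strands and overlapping itself, begins at -110 and that of COX5B at -136, and the GABP core begins at -77 in SDHD, -37 in COX5B and -12 in COX6B1. COX6B1 and COX6B2, isoforms of the same subunit, thus differed in this stretch: none of the 3 cores was in the COX6B2 window. In COX4I1 the GABP core was not in the printed stretch and began at 2, past the start. Among the 14 members with the GABP core, 2 passed the threshold in the SLC30A10 knockout, and among the 19 without it 8 did, with median log2 fold changes of -0.04 and -0.02. For the NRF1 core, in the form shortened after the first search, these counts were 0 of 8 with it and 10 of 25 without it, with medians of 0.01 and -0.05. For the YY1 core they were 2 of 5 and 8 of 28, with medians of -0.05 and -0.02. Of all tested genes 41.3% passed in that comparison. The second knockout, where 13.7% of all tested genes passed, had 1 of 14 with and 2 of 19 without the GABP core, 1 of 8 and 2 of 25 for the NRF1 core, and 0 of 5 and 3 of 28 for the YY1 core. These counts were not tested.

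The first comparison asked which subunit genes changed when SLC30A10 was deleted. COX6B2 rose, COX4I1 and COX7A2L fell, and 5 of 14 tested subunits of ATP synthase fell by small amounts, while complex II had no member past the threshold. In all, 13 of 43 members (30.2%) passed an adjusted p of 0.05 (edgeR quasi-likelihood test, Benjamini-Hochberg over 15569 tested genes), 4 higher and 9 lower. That share was below the 41.3% of all tested genes and the 46.4% among genes that averaged 50 CPM or more. Of all tested genes 21.2% were called higher and 20.1% lower. The groups did not overlap for 13 members, and for 38.3% of all tested genes. The median log2 fold change of the members was -0.03, beside 0.00 for all tested genes.

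The sizes were small: among members the median absolute log2 fold change was 0.08, against 0.16 over all tested genes and 0.11 over the 5094 that reached 50 CPM on average. Only 3 members (6.98%) moved by at least 0.3 on the log2 scale, against 28.6% of all tested genes and 12% of those with at least 50 CPM. Of the 30 members not past the threshold, 29 had at least 50 CPM, and their 95% intervals together ran from -0.20 to 0.22, which is -13.2% to 16.7%. A larger change of any of these 29 therefore lay outside its interval, although a miss of the threshold does not show that the level was the same.

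Changes in the second knockout were fewer and smaller. CYCS, ATP5G1, ATP5G3 and ATP5H fell, which is 4 of 43 members (9.3%) in that direction and 0 in the other, against 13.7% of all tested genes in either direction, 7.19% lower and 6.5% higher, and 13.5% of genes that averaged 50 CPM or more. The groups did not overlap for 4 members, and for 16.3% of all tested genes. The median was -0.05, beside -0.002 for all tested genes, and 32 of 43 members were below 0. The share of all tested genes below 0 was not counted. By 0.3 or more, 0 members moved, against 15.4% of all tested genes and 2.51% of those with at least 50 CPM. The median absolute change was 0.05 among members, against 0.09 over all tested genes and 0.06 over those with at least 50 CPM. Among the 36 members with at least 50 CPM that did not pass, the 95% intervals ran from -0.23 to 0.19, which is -14.9% to 13.8%. The plot of changes by complex gives both comparisons side by side.

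**Figure D1:**
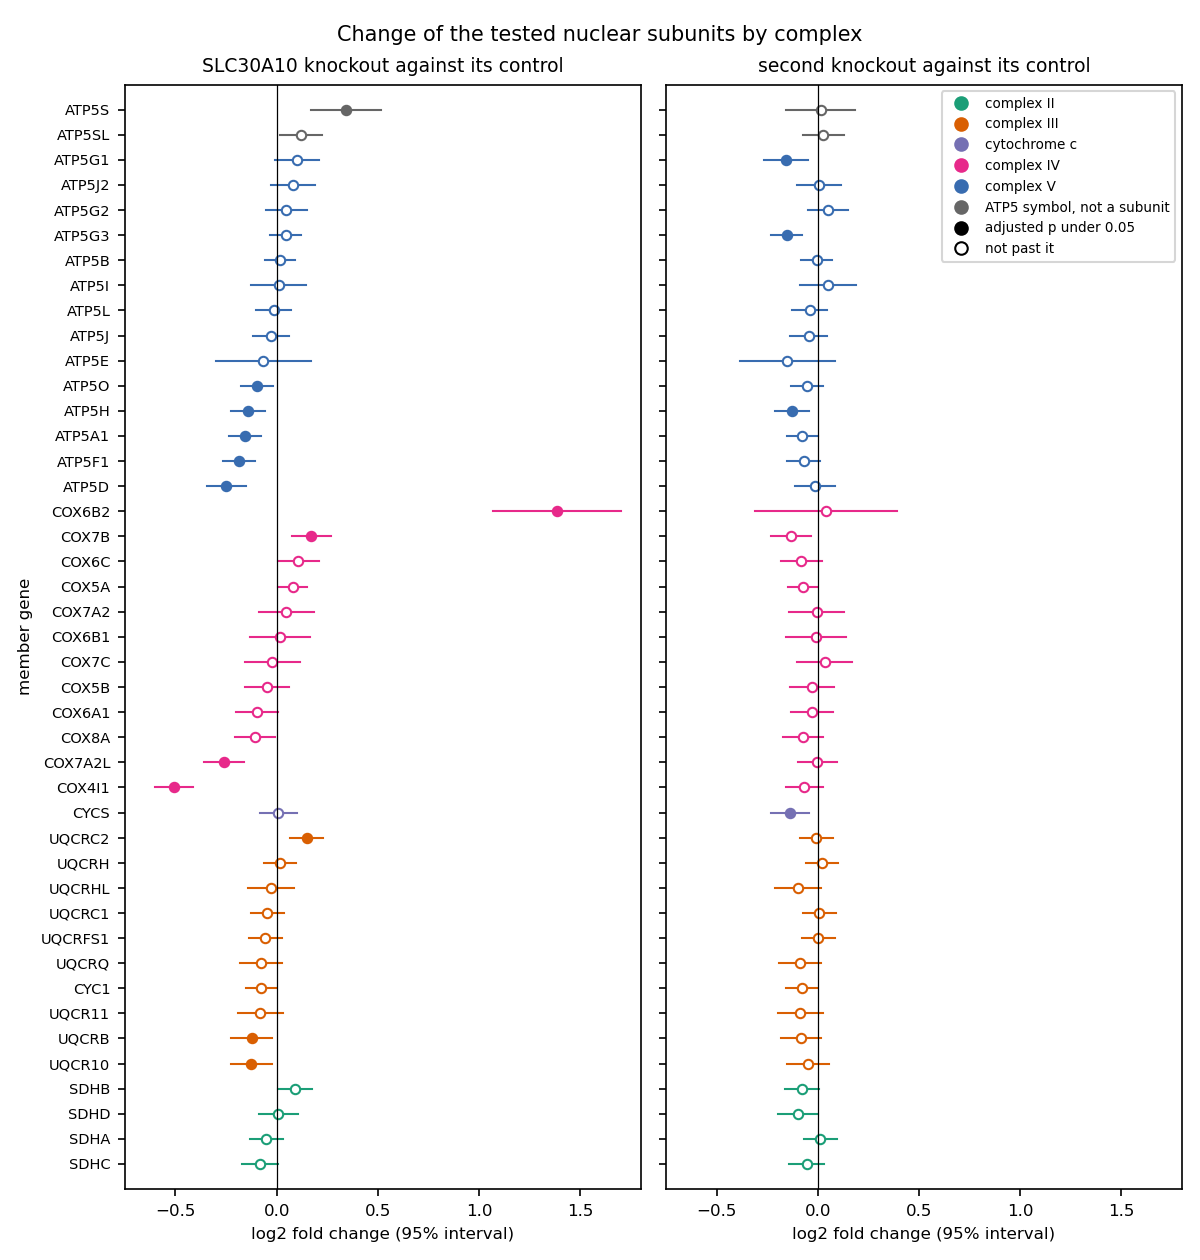
Log2 fold change (x axis, with 95% interval) of the 43 tested members (y axis), coloured by complex, in the SLC30A10 knockout (left) and the second one (right), each against its own control set of 4 libraries. Filled points passed an adjusted p of 0.05: 13 on the left, where COX6B2 and COX4I1 lie farthest from 0, and 4 on the right, all below 0.

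**Figure D2:**
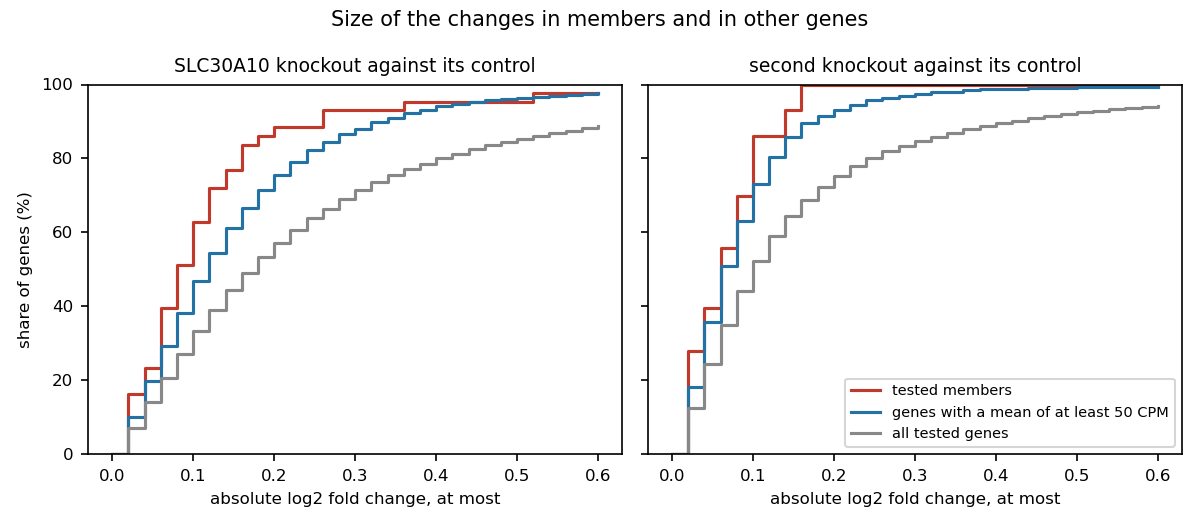
Share of genes (y axis, %) whose absolute log2 fold change was at most the value on the x axis, for the tested members, for genes that averaged 50 CPM or more and for all tested genes, in each knockout comparison. The member curve lies to the left of that of all tested genes, whose median absolute change was 0.16 on the left and 0.09 on the right.

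Complex II holds the flavoprotein SDHA, the iron-sulfur protein SDHB and the membrane anchors SDHC and SDHD. In the SLC30A10 knockout 0 of the 4 passed the threshold, and their log2 fold changes lay between -0.08 and 0.09 (smallest adjusted p = 0.0794, edgeR). The second knockout also had 0 of 4, with changes from -0.10 to 0.01 (smallest adjusted p = 0.196). Without adjustment, the edgeR p was under 0.05 for SDHB alone in the SLC30A10 knockout and for 0 of 4 in the second, beside 48.5% and 25.8% of all tested genes, and DESeq2 called 0 of 4 in either. The summed level of the 4 genes was 573 ± 9.83 CPM (SD, n = 4) in the SLC30A10 control, 570.0 ± 3.98 in that knockout, 583 ± 10.8 in the second control set and 567 ± 18.3 in the second knockout. These sums overlapped between each knockout and its control.

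SDHD, the smaller pattern within complex II, had 93.4, 94.3, 106 and 92.8 CPM in the SLC30A10 control libraries and 103, 97.6, 91.7 and 97.1 in that knockout. It had 95.3, 93.8, 91.2 and 94.8 CPM in the second control set and 89.4, 80.6, 89.7 and 90.8 in the second knockout. All 4 libraries of the second knockout were thus below the other 12, yet the change of -0.10 ± 0.05 did not pass (edgeR adjusted p = 0.196). Rows of the SDHA pseudogenes SDHAP1, SDHAP2 and SDHAP3 lie in the same table, and reads of SDHA can be shared with them.

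Complex III passed the threshold for 3 of 10 members (30%) in the SLC30A10 knockout, below the 41.3% of all tested genes. UQCRC2 rose, and UQCR10 and UQCRB fell, each by less than 0.2 on the log2 scale. UQCRC2 (chr16:21953361-21983660, plus strand), a core protein of the matrix arm, had 268, 282, 274 and 277 CPM in the control libraries and 311, 311, 301 and 296 in the knockout. Every knockout library was above every control library. It rose by 0.15 ± 0.04 on the log2 scale (SE; edgeR adjusted p = 0.00313). In the second control set, however, UQCRC2 reached 307 CPM, so the level of the knockout was not outside the range of all controls. UQCRC2 overlaps PDZD9 in the annotation, whose row changed by 0.23 (adjusted p = 0.0308), and the use of strand in counting is not stated.

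UQCR10 (chr22:29767369-29770413, plus strand), a small subunit, had 104, 109, 119 and 108 CPM in the SLC30A10 control and 103, 105, 99.2 and 96.5 in the knockout, so that the groups overlapped. It fell by 0.12 ± 0.05 on the log2 scale (edgeR adjusted p = 0.0445). UQCRB, a subunit near the ubiquinone site, had 193, 190, 193 and 193 CPM in the control and 172, 195, 167 and 171 in the knockout. Knockout library 2 was above all controls while the other 3 were below them, and the fall was 0.12 ± 0.05 (adjusted p = 0.0403). Both calls lay close to the threshold and were lost on leaving out any 1 of several libraries. Without any 1 of SLC30A10 knockout libraries 1, 3 or 4, SLC30A10 control libraries 2 or 3 or second control libraries 2 or 4, UQCR10 had an edgeR adjusted p of 0.0502 to 0.182. UQCRB had 0.0535 to 0.136 without any 1 of SLC30A10 knockout libraries 1, 3 or 4 or SLC30A10 control libraries 1, 3 or 4. With both control sets pooled both calls were lost (adjusted p = 0.294 and 0.102), and UQCR10 was also lost with DESeq2 (adjusted p = 0.0546).

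The other 7 members of complex III, among them cytochrome c1 (CYC1), the Rieske iron-sulfur protein (UQCRFS1) and the hinge protein (UQCRH), changed by -0.08 to 0.02 in the SLC30A10 knockout (smallest edgeR adjusted p = 0.0922). Of the 10 members, 0 passed in the second knockout, with changes from -0.10 to 0.02 (smallest adjusted p = 0.159); unadjusted, CYC1 alone was under 0.05, and DESeq2 called 0 of 10. Summed over the complex, the level was 1547 ± 38.7 CPM (SD, n = 4) in the SLC30A10 control, 1521 ± 12.9 in that knockout, 1536 ± 46.3 in the second control set and 1501 ± 49.2 in the second knockout. Reads can be shared between UQCRH and its copy UQCRHL. These rows were summed, as were SDHA with its pseudogenes and ATP5E with ATP5EP2. The number of members past the threshold was then again 13 for SLC30A10 and 4 for the second knockout.

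CYCS (chr7:25118656-25125260, minus strand) encodes cytochrome c, the mobile carrier between complexes III and IV that also acts in apoptosis. Its level was 404, 402, 449 and 379 CPM in the SLC30A10 control and 414, 422, 394 and 413 in that knockout, which overlapped (log2 fold change 0.01 ± 0.05, edgeR adjusted p = 0.907). It was, in the second control set, 336, 334, 364 and 369 CPM, and in the second knockout 337, 303, 327 and 309. The latter groups overlapped by a single library, library 1 of the second knockout, and the log2 fold change was -0.14 ± 0.05 (adjusted p = 0.0389).

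That call was lost, with edgeR adjusted p of 0.0521 to 0.180, without any 1 of SLC30A10 knockout libraries 1 or 4, SLC30A10 control libraries 1 or 2, second control libraries 3 or 4 or second knockout libraries 2 or 4. It was also lost with library totals alone (adjusted p = 0.0548), with a mean count of at least 50 (0.0595) and with DESeq2 (0.0672). The difference between the control sets was larger than the change in either knockout. CYCS was higher in the SLC30A10 control set by 0.22 ± 0.05 (adjusted p = 2.60e-04), and every library of that set was above every library of the second. Whether the effects of the knockouts on CYCS differ did not pass the test (0.15 ± 0.06, adjusted p = 0.0828).

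Complex IV held the largest changes of the SLC30A10 knockout, where 4 of 12 tested members (33.3%, beside 41.3% of all tested genes) passed the threshold: COX6B2 and COX7B rose, and COX4I1 and COX7A2L fell. For these 4 genes, and for COX5A, all 4 SLC30A10 knockout libraries lay above or below all 12 other libraries. Over all tested genes that held for 15.6%, and over members for 11.6%. The second knockout had 0 of 12 past it, with changes from -0.13 to 0.04 (smallest edgeR adjusted p = 0.0693); unadjusted, COX5A and COX7B were under 0.05, and DESeq2 called 0 of 12. Summed over the complex, the level was 1572 ± 34.2 CPM (SD, n = 4) in the SLC30A10 control, 1528 ± 47.1 in that knockout, 1560 ± 85.4 in the second control set and 1509 ± 83.1 in the second knockout, with overlapping ranges.

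COX6B2 (chr19:55349704-55354719, minus strand), the isoform of subunit VIb known mainly from testis, had 1.95, 2.19, 1.46 and 2.26 CPM in the SLC30A10 control libraries. It had 5.28, 5.22, 4.84 and 5.23 CPM in the knockout, above every library of the other groups. The second control set gave 2.51, 2.24, 2.35 and 2.19 CPM and the second knockout 2.74, 2.88, 2.30 and 1.63. The rise was 1.39 ± 0.16 on the log2 scale, or 2.61-fold (edgeR adjusted p = 7.83e-09), at a low level of 24 to 85 counts per library. The change in the second knockout was 0.04 ± 0.17 (adjusted p = 0.921), and the difference between the knockout effects was 1.35 ± 0.23 (adjusted p = 3.25e-05). COX6B1, the widely expressed isoform of the same subunit, did not pass, with 0.02 ± 0.07 in the SLC30A10 knockout (95% interval -0.13 to 0.16). The 20 nearest tested genes of COX6B2 had a median change of 0.11, with 8 higher and 2 lower.

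COX4I1 (chr16:85799695-85807068, plus strand), the widely expressed isoform of subunit IV, where ATP is known to act on the enzyme, had 177, 185, 195 and 179 CPM in the SLC30A10 control. In the knockout it had 136, 118, 132 and 132 CPM. The second control set gave 192, 187, 179 and 176 CPM and the second knockout 181, 162, 179 and 178, so the SLC30A10 knockout lay below all 12 other libraries. The log2 fold change was -0.51 ± 0.05, a 1.42-fold lower level (edgeR adjusted p = 5.59e-11), against -0.07 ± 0.05 in the second knockout (adjusted p = 0.373).

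The genes around COX4I1 were lower too. Among its 20 nearest tested genes, from TLDC1 to JPH3 on chromosome 16, 15 were lower and 0 higher in the SLC30A10 knockout, with a median of -0.53, and the adjacent gene EMC8 changed by -0.58 (edgeR adjusted p = 2.15e-06). These neighbours had a median of 0.00 in the second knockout. The part of the neighbourhood in the fall of COX4I1 was not tested. COX4I2, the isoform of subunit IV known from lung and from low oxygen, gave 0 to 2 counts in every library and was not tested. In RNA from whole cultures, a lower level in every cell and a loss from some of the cells cannot be told apart.

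COX7A2L (chr2:42335559-42368957, minus strand), a protein related to subunit VIIa that is known to join complexes III and IV in supercomplexes, had 91.2, 79.8, 84.7 and 86.6 CPM in the SLC30A10 control and 69.7, 72.8, 70.6 and 72.7 in the knockout. The second control set gave 91.8, 91.4, 82.2 and 86.7 CPM and the second knockout 92.8, 89.2, 81.8 and 87.6. Only the SLC30A10 knockout stood apart among the 4 groups. Its fall was 0.26 ± 0.05 on the log2 scale (edgeR adjusted p = 5.63e-05), and its 20 nearest tested genes had a median of -0.14, with 8 lower and 2 higher. COX7A2L in the second knockout changed by 0.00 ± 0.05 (95% interval -0.10 to 0.10).

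COX7B (chrX:77899468-77907376, plus strand), a small subunit of complex IV, was singled out after its values were seen, since it moved in opposite directions in the knockouts. It had 170, 158, 170 and 169 CPM in the SLC30A10 control and 196, 191, 181 and 183 in that knockout, with no overlap. It had 165, 142, 152 and 158 CPM in the second control set and 157, 139, 134 and 133 in the second knockout, which overlapped. The rise in the SLC30A10 knockout was 0.17 ± 0.05 (edgeR adjusted p = 0.00454), the change in the second knockout was -0.13 ± 0.05 (adjusted p = 0.0693), and the difference between these effects was 0.30 ± 0.07 (adjusted p = 8.21e-04). Its 20 nearest tested genes on the X chromosome had a median of 0.19 in the SLC30A10 knockout, with 9 higher and 2 lower, and their part in the result was not tested.

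The remaining 8 tested members of complex IV (COX5A, COX5B, COX6A1, COX6B1, COX6C, COX7A2, COX7C and COX8A) changed by -0.11 to 0.11 in the SLC30A10 knockout (smallest edgeR adjusted p = 0.0716). COX5A, a subunit on the matrix side of the enzyme, had 295, 302, 294 and 294 CPM in the SLC30A10 control and 316, 317, 314 and 306 in the knockout. The groups did not overlap, but the change of 0.08 ± 0.04 did not pass (adjusted p = 0.0716). The tissue-restricted isoforms COX6A2, COX7A1, COX7B2 and COX8C were at 0 to 8 counts in all libraries and were not tested. The plots of levels by library show these genes beside those of the other complexes.

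**Figure D3:**
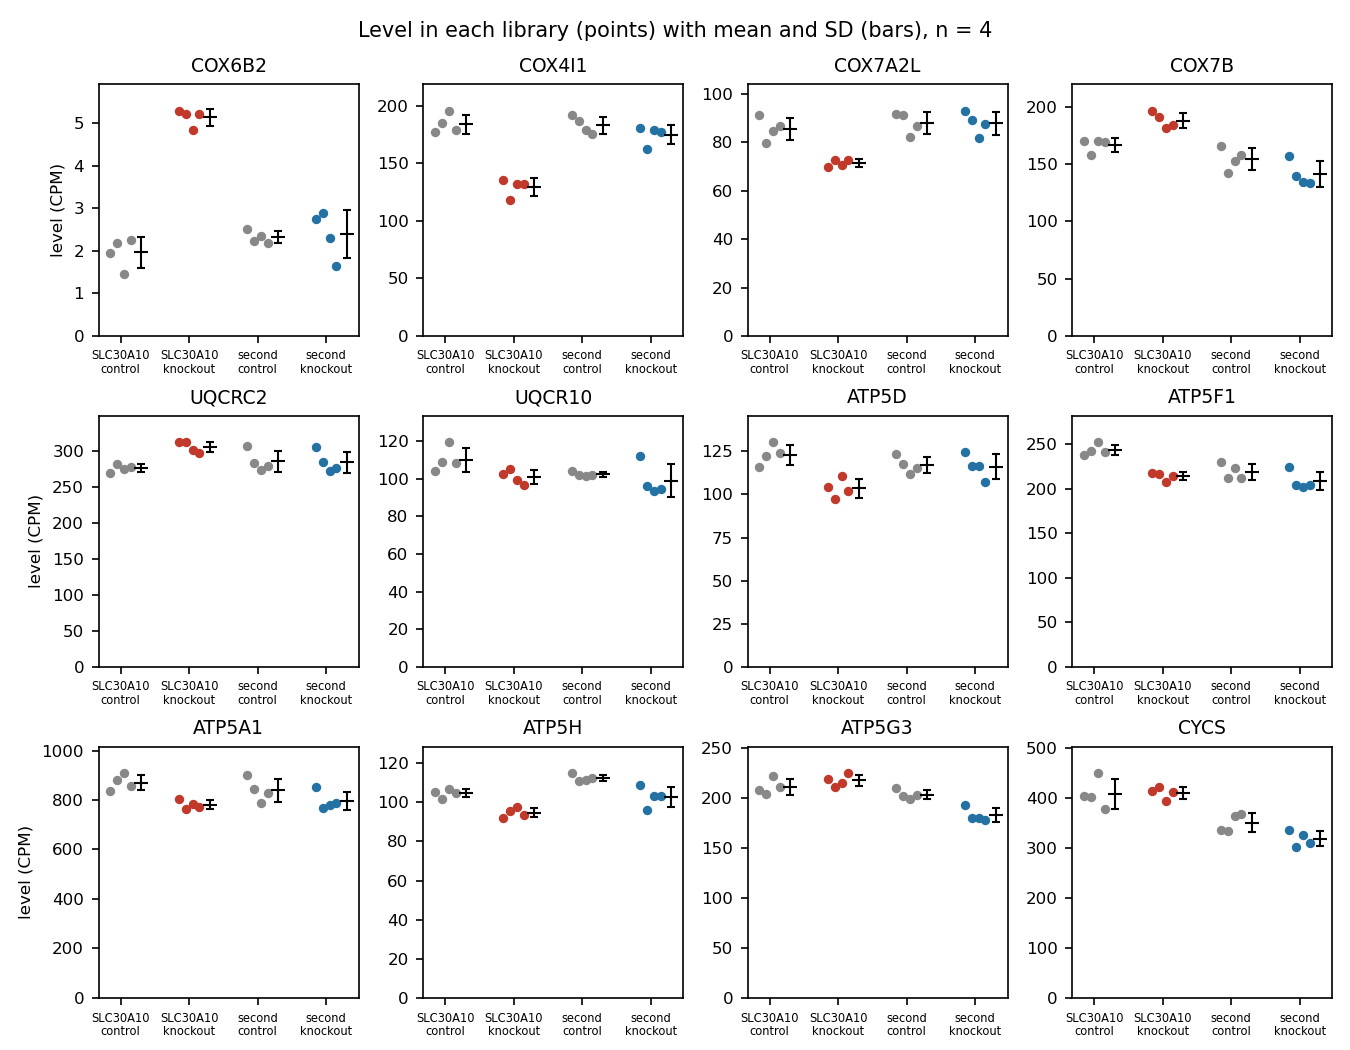
Level in CPM (y axis, from 0) of 12 members in each of the 16 libraries (points, in library order 1 to 4 within a group), with the mean and SD of each group (bars, n = 4). COX6B2, COX4I1, COX7A2L and COX7B in the SLC30A10 knockout lie apart from the other 3 groups, ATP5G3 is lowest in the second knockout, and CYCS differs mainly between the control sets.

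In complex V the median log2 fold change was -0.02 in the SLC30A10 knockout. There 5 of 14 tested subunits (35.7%, beside 41.3% of all tested genes) were lower past the threshold and 0 higher. These were the alpha subunit ATP5A1 of the catalytic head, the delta subunit ATP5D of the rotating central stalk and, in the peripheral stalk, which holds the head against rotation, the b subunit ATP5F1, the d subunit ATP5H and the oligomycin-sensitivity protein ATP5O. Among all tested genes 20.1% were called lower and 21.2% higher. In the second knockout 3 of 14 were lower and 0 higher, beside 7.19% and 6.5%: the c-ring genes ATP5G1 and ATP5G3, and ATP5H. Only ATP5H passed in both.

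ATP5D (chr19:1241751-1244825, plus strand) had 116, 122, 130 and 124 CPM in the SLC30A10 control and 104, 97.3, 111 and 102 in the knockout. It had 123, 118, 112 and 115 CPM in the second control set, and the second knockout 124, 116, 116 and 107. The SLC30A10 knockout was below its own control in every library and overlapped the second knockout. Its fall was 0.25 ± 0.05 on the log2 scale (edgeR adjusted p = 8.75e-05), beside -0.01 ± 0.05 in the second knockout, and the difference of -0.23 ± 0.07 passed the threshold (adjusted p = 0.00793).

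ATP5F1 (chr1:111449464-111462773, plus strand) had 238, 243, 252 and 241 CPM in the SLC30A10 control and 218, 216, 208 and 215 in the knockout. The second control set gave 230, 211, 223 and 212 CPM and the second knockout 224, 205, 202 and 204. The SLC30A10 control set was thus above all 12 other libraries, and the knockout overlapped the second control set. Of all tested genes, 10.1% had this control set above or below all the others. The fall was 0.18 ± 0.04 (edgeR adjusted p = 2.69e-04), the control sets differed by 0.15 ± 0.04 (adjusted p = 0.00256), and with both control sets pooled the call was lost (log2 fold change -0.11, adjusted p = 0.0738). Its 20 nearest tested genes had a median of -0.12, with 9 lower and 2 higher.

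ATP5A1 (chr18:46080248-46104227, minus strand) had 835, 879, 907 and 858 CPM in the SLC30A10 control and 804, 764, 786 and 770 in the knockout, with no overlap. The second control set gave 900, 844, 787 and 829 CPM and the second knockout 851, 769, 778 and 789. Its fall was 0.16 ± 0.04 (edgeR adjusted p = 0.00147) in the SLC30A10 knockout, and the change in the second knockout was -0.08 ± 0.04 (adjusted p = 0.214). The difference between the effects did not pass (adjusted p = 0.283). ATP5B, the beta subunit that makes ATP together with alpha, changed by 0.02 ± 0.04 (95% interval -0.06 to 0.09) in the same comparison.

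ATP5H (chr17:75038863-75046969, minus strand) had 105, 102, 107 and 105 CPM in the SLC30A10 control and 92.2, 95.5, 97.6 and 93.4 in that knockout. It had 115, 111, 111 and 113 CPM in the second control set and 109, 96.2, 103 and 103 in the second knockout. Each knockout was below its own control in every library, and the second control set was above all 12 other libraries. For 2.11% of all tested genes that set was above or below all the others. The log2 fold change was -0.14 ± 0.04 in the SLC30A10 knockout (edgeR adjusted p = 0.00545) and -0.13 ± 0.04 in the second knockout (adjusted p = 0.0310). The latter call was lost, with adjusted p of 0.0512 to 0.188, without any 1 of the 4 second control libraries or of second knockout libraries 2 or 4. It was also lost with only the 8 libraries compared (0.0671) and with both control sets pooled (0.189). ATP5H overlaps KCTD2, whose row changed by -0.12 (adjusted p = 0.0975) and -0.19 (adjusted p = 0.0282) in the same comparisons.

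ATP5O had 164, 169, 169 and 160 CPM in the SLC30A10 control and 161, 150, 150 and 158 in the knockout, which overlapped. Its fall of 0.10 ± 0.04 was at the threshold (edgeR adjusted p = 0.0488). That call was lost, with adjusted p of 0.0540 to 0.132, without any 1 of SLC30A10 knockout libraries 2 or 3, SLC30A10 control libraries 1, 2 or 3 or second control libraries 2 or 4. It was also lost with the replicate block (edgeR adjusted p = 0.0534), with no low-count filter (0.0853) and with a mean count of at least 50 (0.0503). The other 9 tested subunits, which include epsilon (ATP5E), the coupling subunit ATP5J and the membrane subunits ATP5I, ATP5J2 and ATP5L, changed by -0.07 to 0.10 (smallest adjusted p = 0.128).

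The c ring, which turns as protons pass, is built from an identical mature protein encoded by ATP5G1, ATP5G2 and ATP5G3. ATP5G3 (chr2:175176258-175181710, minus strand) had 208, 204, 222 and 211 CPM in the SLC30A10 control and 220, 212, 216 and 225 in that knockout. In the second control set it had 210, 202, 199 and 204 CPM and in the second knockout 193, 180, 180 and 178, so the second knockout lay below all 12 other libraries. The second knockout stood apart, above or below, for 6.38% of all tested genes and for 4.65% of members, which were ATP5G3 and SDHD, both below. The log2 fold change in the second knockout was -0.15 ± 0.04 (edgeR adjusted p = 0.00467), and that in the SLC30A10 knockout 0.04 ± 0.04 (adjusted p = 0.376).

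ATP5G1 (chr17:48892787-48895871, plus strand) had 95.3, 94.2, 108 and 89.7 CPM in the SLC30A10 control and 110, 99.9, 101 and 104 in that knockout. It had 95.3, 91.0, 105 and 98.4 CPM in the second control set and 87.2, 82.5, 94.4 and 84.8 in the second knockout, which overlapped. The change was -0.16 ± 0.05 in the second knockout (edgeR adjusted p = 0.0458) and 0.10 ± 0.05 in the SLC30A10 knockout (adjusted p = 0.128). The former call was lost, with adjusted p of 0.0523 to 0.215, without any 1 of 12 libraries, which were all but SLC30A10 control libraries 3 and 4, second control library 2 and second knockout library 3. It was also lost, with adjusted p of 0.0516 to 0.0716, under each of the 3 other scalings, with a mean count of at least 50, with DESeq2 and with only the 8 libraries compared. The differences between the knockout effects passed for ATP5G1 (0.26 ± 0.08, adjusted p = 0.00820) and ATP5G3 (0.20 ± 0.05, adjusted p = 0.00458).

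ATP5G2 changed by 0.05 ± 0.05 in each knockout and passed in neither. Per kilobase of the principal GENCODE transcript (606, 878 and 842 bases for ATP5G1, ATP5G2 and ATP5G3), the levels in the SLC30A10 control were 160 ± 13.1, 286 ± 12.3 and 251 ± 9.20 CPM per kb (SD, n = 4). Those of the second knockout were 144 ± 8.53, 326 ± 19.6 and 217 ± 8.16 CPM per kb. ATP5G2 had the highest and ATP5G1 the lowest level per length in both groups.

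Summed over complex V, the level was 3783 ± 129 CPM (SD, n = 4) in the SLC30A10 control, 3662 ± 72.5 in that knockout, 3737 ± 155 in the second control set and 3632 ± 151 in the second knockout. The ranges of each knockout and its control overlapped. For each of complexes II to V, library 1 had the highest sum of its group in both knockouts and among the second controls. Among the SLC30A10 controls it was library 3 each time.

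**Figure D4:**
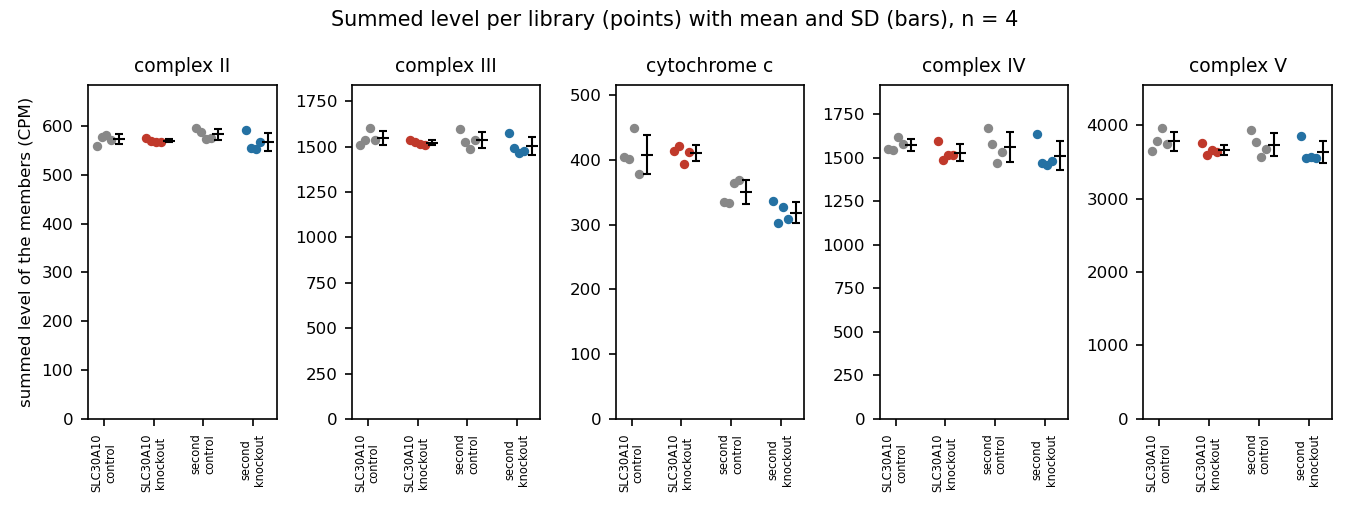
Summed level in CPM (y axis, from 0) of the members of each complex, and of CYCS for cytochrome c, in each library (points) with mean and SD (bars, n = 4). The knockouts overlap their own control sets in every panel, and the largest separation is that of CYCS between the SLC30A10 groups and the second groups.

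ATP5S and ATP5SL, which are not subunits, were also measured. ATP5S (chr14:50311516-50327957, plus strand) had 11.6, 10.4, 10.4 and 10.1 CPM in the SLC30A10 control and 13.6, 14.2, 13.4 and 12.7 in that knockout, a rise of 0.34 ± 0.09 on the log2 scale without overlap (edgeR adjusted p = 0.00157). The second control set gave 11.6, 12.2, 13.9 and 13.4 CPM and the second knockout 11.9, 12.8, 14.4 and 12.5, so 3 of the 4 SLC30A10 knockout libraries lay within the range of the second control set and library 2 above it. With both control sets pooled the call was lost (log2 fold change 0.20, adjusted p = 0.0803). ATP5S overlaps CDKL1 in the annotation, whose row did not pass in this comparison (adjusted p = 0.280).

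The knockout effects were then compared with each other, as the difference of the log2 fold changes. It passed the threshold for 12 of 43 members (27.9%), against 31.2% of all tested genes, 9 higher and 3 lower in the SLC30A10 knockout relative to the second. Among all tested genes 16.7% were called higher and 14.5% lower in the same sense. Complex IV held 6 of the 12 (COX6B2, COX7B, COX6C, COX5A, COX7A2L and COX4I1), complex V 3 (ATP5G1, ATP5G3 and ATP5D), and complexes II and III 1 each (SDHB and UQCRC2), with ATP5S as the other. The difference for COX4I1 was -0.44 ± 0.06 (edgeR adjusted p = 1.78e-06) and that for COX7A2L -0.26 ± 0.07 (adjusted p = 0.00385).

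SDHB, COX5A and COX6C passed in neither knockout alone. Their changes were 0.09, 0.08 and 0.11 in the SLC30A10 knockout and -0.08, -0.08 and -0.08 in the second, with differences of 0.17 ± 0.06 (edgeR adjusted p = 0.0276), 0.15 ± 0.05 (0.0167) and 0.19 ± 0.07 (0.0382). These 3 were chosen after their values were seen. The calls of SDHB, COX6C, UQCRC2 and ATP5S were lost without any 1 of 8 to 10 libraries, with adjusted p of up to 0.0913, 0.112, 0.105 and 0.0963. With library totals alone COX6C, UQCRC2 and ATP5S were lost (0.0650, 0.0591 and 0.0584), with DESeq2 COX6C and ATP5S (0.0522 and 0.0599), and with no low-count filter ATP5S (0.0581). COX5A was lost without second knockout library 2 (adjusted p = 0.0510).

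Both control sets are wild type and listed under a common identifier, so their difference shows the spread between these sets, whose source the labels do not give. That difference passed for 8 of 43 members (18.6%), 4 up and 4 down in the SLC30A10 control set. Of all tested genes 39.4% passed, 18.5% up and 20.8% down. The groups did not overlap for 7 members, and for 36.3% of all tested genes. ATP5S (-0.26 ± 0.09, edgeR adjusted p = 0.0146), CYCS and UQCRFS1 differed most among the called members. The ATP5S call was lost without second control library 3 or 4 (adjusted p of 0.0513 and 0.0712). UQCRFS1 (chr19:29205320-29213151, minus strand), the Rieske iron-sulfur protein, had 155, 159, 166 and 152 CPM in the SLC30A10 control set and 141, 139, 132 and 132 in the second. It was higher by 0.22 ± 0.04 (adjusted p = 8.10e-05) in the former, with no overlap, while the knockouts changed it by -0.06 ± 0.04 and 0.00 ± 0.04. With library totals alone as scaling, the split of the control sets was 8 higher and 2 lower, and with median-of-ratios factors 4 and 2. For the difference of the knockout effects, library totals gave 6 higher and 4 lower.

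Position on the chromosome was compared for each member with its nearest tested genes in RefSeq order, which placed 14150 tested genes (90.9%). COX4I1 was the member with the largest median change of its neighbours in the SLC30A10 knockout. Next came ATP5G2, whose neighbours had a median of 0.22 beside 0.05 for the gene itself, COX7B, and ATP5G3, whose neighbours had -0.17 beside 0.04. For the called members UQCRC2, ATP5D, ATP5A1 and ATP5S the neighbours had medians of -0.08, -0.07, 0.06 and 0.00. The plot of members against neighbours shows these values.

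**Figure D5:**
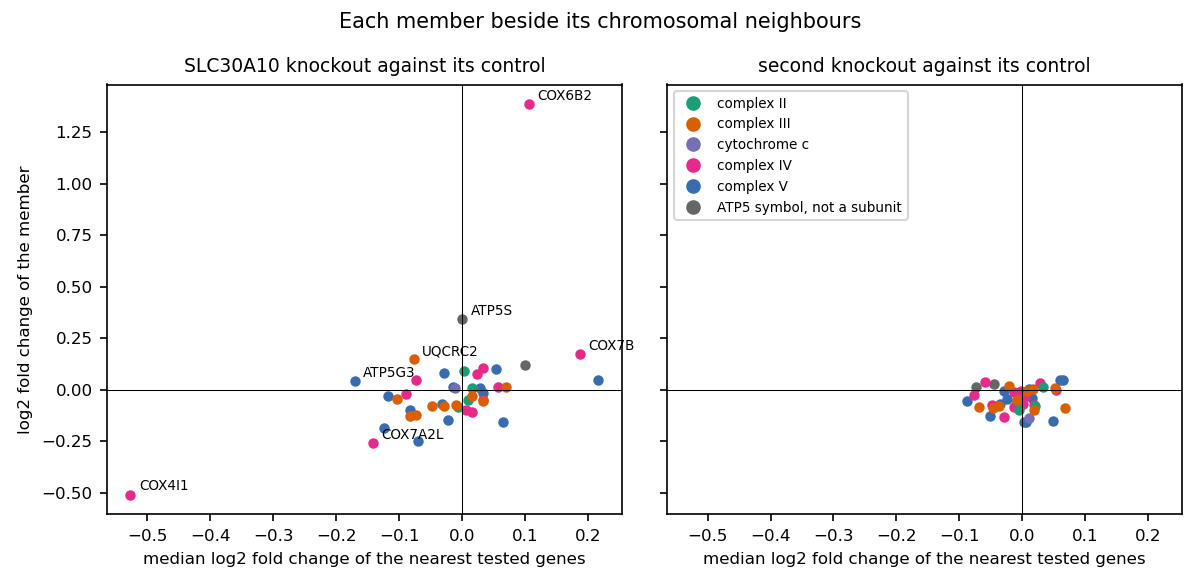
Log2 fold change of each tested member (y axis) against the median of its nearest tested genes on the chromosome (x axis), coloured by complex, in the SLC30A10 knockout (left) and the second one (right). COX4I1 lies at -0.51 with neighbours at -0.53, and COX6B2 at 1.39 with neighbours at 0.11.

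Other genes of the pathway were taken from lists. Of 5 tested genes of these complexes that are not members (ATP5C1, which was left out by name, ATPIF1, NDUFA4, USMG5 and C14orf2), 0 rose and 1 fell in the SLC30A10 knockout, beside 21.2% and 20.1% of all tested genes. ATPIF1, the inhibitor of ATP hydrolysis, changed by -0.18 ± 0.04 (edgeR adjusted p = 5.14e-04). In the second knockout 1 rose and 0 fell, beside 6.5% and 7.19%: ATP5C1, the gamma subunit that turns inside the head, went from 249, 222, 243 and 247 CPM to 708, 661, 616 and 637, a change of 1.45 ± 0.04 (adjusted p = 2.06e-23). In the SLC30A10 knockout ATP5C1 changed by 0.04 ± 0.04 (adjusted p = 0.528). No other tested subunit gene of complex V moved by 0.3 or more in either knockout.

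Of 42 tested assembly factors, 7 rose and 6 fell in the SLC30A10 knockout (31%, median 0.01), and 1 rose and 4 fell in the second knockout (11.9%, median 0.00), beside 41.3% and 13.7% of all tested genes. FASTKD2, an RNA-binding protein of mitochondria, had 55.9 to 62.4 CPM in the SLC30A10 control and 0.0621 to 0.249 in that knockout (edgeR adjusted p = 7.91e-31), and it changed by -0.64 ± 0.06 in the second knockout (adjusted p = 2.77e-10). CMC2, a copper-related factor of complex IV, changed by -0.76 ± 0.06 (adjusted p = 1.23e-11) and -0.22 ± 0.06 (adjusted p = 0.0120). Its 20 nearest tested genes, also on chromosome 16, had a median of -0.24 in the SLC30A10 knockout, with 10 lower and 1 higher. COX15, which makes the heme of complex IV, rose by 0.22 ± 0.04 in the SLC30A10 knockout (adjusted p = 2.68e-05), and COX19, a copper chaperone, by 0.32 ± 0.08 in the second knockout (adjusted p = 0.00426).

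Of 14 tested transcriptional regulators, 0 rose and 5 fell in the SLC30A10 knockout, with a median of -0.12. The called share of 35.7% was below the 41.3% of all tested genes, of which 20.1% were lower. YY1 changed by -0.15 ± 0.04 (edgeR adjusted p = 0.00205), GABPB1, a subunit of GABP, by -0.24 ± 0.07 (adjusted p = 0.00472) and NRF1 by -0.21 ± 0.06 (adjusted p = 0.00795). Mean YY1 was 162 CPM in the SLC30A10 control, 146 in that knockout, 148 in the second control set and 143 in the second knockout. In that order GABPB1 had 38.3, 32.5, 34.2 and 32.8 CPM, and NRF1 33.2, 28.7, 31.5 and 33.6. For YY1 and GABPB1 the SLC30A10 control was thus the high group, and the knockout overlapped the second control set. The control sets differed for YY1 (0.13 ± 0.04, edgeR adjusted p = 0.00709), while GABPB1 did not pass (adjusted p = 0.0517). In the second knockout 1 rose and 0 fell (7.14%, beside 13.7%): MYC changed by 0.43 ± 0.09 (adjusted p = 0.00817). Between the control sets 6 were higher and 2 lower in the SLC30A10 set (57.1%, beside 39.4% of all tested genes).

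The 7 untested members were near or at the floor: ATP5J2-PTCD1, COX6A2 and COX7B2 had 0 counts in all 16 libraries, COX4I2 at most 2, COX7A1 at most 3, COX8C 1 to 8 and ATP5L2 2 to 9. The expression filter left these out, so a difference in them was not tested, and at such counts only a large one could show. Of the 43 tested, 27 passed in neither knockout, 1 in both, and 20 in none of the 4 comparisons.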

How the data were processed

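The authors deposited whole-number counts per gene symbol and a normalized signal table, in which each column is the count column of the same library times a constant. Reads were paired-end, poly-A selected, per the labels' protocols. HISAT2, featureCounts, DESeq2 and GRCh38 are named in the submitters' processing notes; versions, annotation and the use of strand are not given in the sources used here.

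The count table was fitted with edgeR 4.0.16 (R 4.3.3): expression filter (minimum count 10, minimum total 15), TMM scaling, all 16 libraries in 4 groups, quasi-likelihood F tests, Benjamini-Hochberg adjustment over 15569 tested genes, threshold 0.05. All genes were fitted and only the subunit genes and their lists are printed. CPM refers to the scaled library size, and common biological variation was 0.0497. Replicate pairs differed by 1.62 to 6.65 chi-square per degree of freedom, above sampling noise, so none was treated as a repeat. The NRF1 core was shortened to 8 letters after the result of a 10-letter form was known; both are printed. The procedure was tested on simulated counts. Neighbours are the 10 nearest tested genes on each side. Alternatives were the replicate block, 3 other scalings, 2 filters, DESeq2 1.42.0, 2 stricter thresholds, fewer libraries and pooled controls. Near-identical rows summed and the omission of members among neighbours that moved were chosen after seeing the data.

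Members and lists were chosen with earlier results of these data known. Full values are printed for the 3 called members with the largest change per complex and knockout, those whose effects differ by at least 0.5, the 3 that differ most between control sets, and up to 3 called genes per list and knockout; others are marked as chosen after their values were seen, as were SDHD, COX5A, ATP5O and ATP5S. The gene deleted in the second knockout is not reported here.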

Additional observations from a re-analysis of the deposited data

Results flagged for a closer look

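Among the 23 members that passed the threshold in any comparison, 92 groups of 4 libraries were examined, and in 14 a library lay apart from the other 3, with a gap to the nearest of them, as a share of the group's range, above Dixon's 95% limit. For independent groups chosen without regard to these data, about 1 in 20, or 4.6, would pass that limit. These members were picked because they passed in the same data, and their groups share libraries, so the 14 cannot be weighed against that number. Library 1 of the second knockout was the highest in 5 of the 14: COX5A (297 CPM beside 274 to 274, gap share 0.971), ATP5F1 (224 beside 202 to 205, 0.894), COX6C (85.7 beside 75.1 to 76.5, 0.873), ATP5G3 (193 beside 178 to 180, 0.871) and UQCR10 (112 beside 93.5 to 96.0, 0.863). Library 2 of that group was the lowest for UQCR11 (gap share 0.940) and COX4I1 (0.836).

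In the SLC30A10 control set, library 2 was the lowest for COX7B (0.908) and UQCRB (0.900) and the highest for COX5A (0.857), and library 3 was the highest for UQCR11 (0.846). In the SLC30A10 knockout, library 4 was the lowest for ATP5G2 (0.877) and library 3 for COX6B2 (0.858, at 4.84 CPM beside 5.22 to 5.28). Library 1 of the second control set was the highest for UQCR10 (0.933), where the whole group ran only from 102 to 104 CPM.

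The knockout effects differed, by edgeR's test of the difference at an adjusted p under 0.05, for 12 members. The SLC30A10 effect was the higher for COX6B2 (difference 1.35 on the log2 scale), ATP5S (0.33), COX7B (0.30), ATP5G1 (0.26), ATP5G3 (0.20), COX6C (0.19), SDHB (0.17), UQCRC2 (0.15) and COX5A (0.15). It was the lower for COX4I1 (-0.44), COX7A2L (-0.26) and ATP5D (-0.23).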

How the results depend on the processing

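Of 37 calls of single members, 19 held under every setting run for single members, 18 were lost under at least 1, and 0 reversed. The 2 stricter thresholds were not among those settings, and COX6B2 was not fitted with a mean count of at least 50. In the SLC30A10 knockout 13 members passed; with a log2 fold change of at least 0.3 also required it was 3, and leaving out 1 library gave 10 to 14. In the second knockout 4 passed; it was 2 with library totals alone, with a mean count of at least 50, with DESeq2 and with only the 8 libraries compared, 1 at an adjusted p under 0.01, and 0 with a log2 fold change of at least 0.3. Leaving out 1 library gave 1 to 4 there: 2 without SLC30A10 knockout library 1 or 4, SLC30A10 control library 1 or 2 or second control library 1, and 1 without second control library 3 or 4 or second knockout library 2 or 4. The difference of the knockout effects passed for 12; it was 7 at an adjusted p under 0.01 and 4 with 0.3 required, and leaving out 1 library gave 7 to 13, the lowest without second knockout library 2. Between the control sets 8 passed; it was 3 at 0.01 and 0 with 0.3 required, and leaving out 1 library gave 5 to 12, with 5 without SLC30A10 control library 3 or second control library 2. The labels link same-numbered libraries only by their number. Over all tested genes their deviations from the group means had mean correlations of -0.0318, 0.0472 and 0.0179 in the SLC30A10, second and control comparisons. Single pairs ran from -0.103 to 0.116. The summed levels of complexes II to V were, however, highest in library 1 of both knockouts and of the second control set. Whether same-numbered libraries share a source of variation was not tested for the members. With the replicate block the counts were 15, 5, 12 and 9. Of the called members, only ATP5O in the SLC30A10 knockout was then not past the threshold (adjusted p = 0.0534 with the replicate block). With both control sets pooled they were 14 and 6 for the knockouts, of which 9 and 3 had passed before. The causes of these shifts were not tested. At 24 to 85 counts per library, COX6B2 is the least deeply measured of the large changes.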
